A study of Mus musculus with 16 samples.

Results

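Cytokines of the gp130 family and the STAT3 pathway they drive were followed in mouse kidneys 24 h after unilateral ureteral obstruction (UUO), the clipping of 1 ureter. The genes were taken by symbol from the table of array intensities, as the cytokines Lif and Osm, the receptors Lifr and Osmr, the transcription factor Stat3, the feedback inhibitors Socs1, Socs2 and Socs3, and the nuclear factors Bcl3 and Cebpd. Of these 10 genes, 9 had a row among the 18132 genes of the table, and Cebpd was not analysed here.

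Cytokines of this family, such as leukaemia inhibitory factor (LIF), oncostatin M (OSM), IL-6 and IL-11, bind a receptor of their own that pairs with the shared subunit gp130, encoded by Il6st. The bound JAK kinases phosphorylate STAT3, which enters the nucleus and switches on genes of the acute phase response, of cell survival and of its own inhibition. SOCS3 is the classical brake of this loop, since it is induced by STAT3 and blocks signalling at gp130, and in the kidney the pathway is known to respond to injury of the tubules. The arrays measured mRNA, and phosphorylation of STAT3 was not measured.

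The study asked how kidneys of IL-33-deficient mice, here also called mutants, which lack a nuclear cytokine of the IL-1 family, differ from wildtype (WT) kidneys early after UUO. RNA of whole kidney homogenates was hybridised to 16 Illumina MouseRef-8 v2 BeadChip arrays. These were 2 WT control, 7 WT UUO, 2 IL-33-deficient control and 5 IL-33-deficient UUO arrays, and the UUO arrays came in 2 sets, set 1 with 3 WT and 2 IL-33-deficient kidneys and set 2 with 4 and 3. WT mice were labelled C57/BL6, the Il33 deletion was present in the whole animal and had been backcrossed to C57BL/6J BomTac, and the methods give an age of 8 weeks. The controls were labelled only as control, with no set, and whether they were sham operated or had no surgery is not given in the sources used here. Each difference between UUO and control kidneys may therefore hold an effect of surgery, which cannot be told apart from obstruction. The study describes its UUO data as coming from single animals, and each array was taken as 1 kidney.

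Kidneys are named below by the number in their labels, and levels are log2 intensities after quantile normalization. Il33, the deleted gene, was at 6.85 and 6.88 in the IL-33-deficient controls and between 6.80 and 7.02 in the 5 IL-33-deficient kidneys after UUO. In WT kidneys it was at 7.62 and 8.02 in the controls and between 8.39 and 9.57 after UUO, so all 16 arrays fitted their genotype label. The 1075 olfactory receptor genes of the table, which a kidney hardly uses, lay between 6.73 and 7.03 (5th and 95th percentile), and this range serves as the background of the arrays. Tubule markers were bright, with a summed intensity of 37310 to 43750 in the 4 controls. Kidneys 3818 and 3820, both WT and of set 1, stood apart. After UUO the summed intensity of the tubular injury markers Havcr1, Lcn2 and Krt20 was 15200 in 3818 and 5249 in 3820, against 20120 to 29520 in the other 5 WT kidneys, and results of the genes that moved are therefore also given without these 2 kidneys, a choice made after seeing the data.

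The start regions of the genes whose mRNA is described below are shown first, because STAT3 binds DNA and its feedback loop runs through such regions. The sequences are from RefSeq on GRCm38.p6 and run 5′ to 3′ from 250 bases before to 50 bases after the transcription start. RefSeq windows were matched for 7 of the 10 genes, and those of Osm, Socs2 and Cebpd were not. They were searched on both strands for TTCNNNGAA, the core of the STAT element, and for TGANTCA, the AP-1 element of the FOS and JUN factors. Capitals mark a match, and both motifs read the same on either strand and do not overlap here.
Socs3 (chr11:117969317-117969616, minus strand): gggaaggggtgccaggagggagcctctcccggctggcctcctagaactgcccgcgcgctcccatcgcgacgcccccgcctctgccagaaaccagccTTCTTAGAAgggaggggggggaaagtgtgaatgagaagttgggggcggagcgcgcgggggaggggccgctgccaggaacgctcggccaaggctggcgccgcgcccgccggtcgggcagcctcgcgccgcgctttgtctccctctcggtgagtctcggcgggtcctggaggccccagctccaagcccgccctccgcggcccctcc
Osmr (chr15:6874264-6874563, minus strand): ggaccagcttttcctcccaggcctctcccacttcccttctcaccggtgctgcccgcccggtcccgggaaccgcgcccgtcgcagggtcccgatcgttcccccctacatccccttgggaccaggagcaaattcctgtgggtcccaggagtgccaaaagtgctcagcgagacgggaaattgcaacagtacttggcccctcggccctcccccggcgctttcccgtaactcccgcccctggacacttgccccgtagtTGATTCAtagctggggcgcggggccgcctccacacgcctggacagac
Lif (chr11:4257318-4257617, plus strand): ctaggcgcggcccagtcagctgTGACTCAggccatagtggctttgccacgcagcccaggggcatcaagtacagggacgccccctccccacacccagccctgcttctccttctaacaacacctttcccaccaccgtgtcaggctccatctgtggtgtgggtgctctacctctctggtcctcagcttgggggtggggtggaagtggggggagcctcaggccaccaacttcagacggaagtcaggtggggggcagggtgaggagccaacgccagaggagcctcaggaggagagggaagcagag
Stat3 (chr11:100939491-100939790, minus strand): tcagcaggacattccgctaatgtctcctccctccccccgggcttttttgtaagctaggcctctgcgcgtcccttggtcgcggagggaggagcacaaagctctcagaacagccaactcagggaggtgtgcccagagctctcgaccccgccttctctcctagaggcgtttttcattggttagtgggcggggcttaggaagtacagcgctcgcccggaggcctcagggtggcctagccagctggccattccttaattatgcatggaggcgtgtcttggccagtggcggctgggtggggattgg
Bcl3 (chr7:19822706-19823005, minus strand): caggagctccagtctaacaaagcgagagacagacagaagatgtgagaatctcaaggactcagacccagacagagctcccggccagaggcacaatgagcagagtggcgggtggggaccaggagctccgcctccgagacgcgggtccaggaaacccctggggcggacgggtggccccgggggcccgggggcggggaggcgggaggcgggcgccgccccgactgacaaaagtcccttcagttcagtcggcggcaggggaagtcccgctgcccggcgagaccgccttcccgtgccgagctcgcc
Socs3 held 1 TTCNNNGAA, written TTCTTAGAA, that begins 154 bases before the start. Osmr held 1 TGANTCA 3 bases past its start, and Lif 1 TGANTCA 228 bases before its start. The windows of Stat3, Bcl3, Socs1 and Lifr held neither. Of all 32851 RefSeq windows of 300 bases, 8.3% held TTCNNNGAA and 7.81% held TGANTCA, so a match in 1 window is common, and it describes letters and not a bound site.

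In WT kidneys, 5 of the 9 genes rose after UUO (Osmr, Stat3, Socs3, Socs2 and Bcl3) and none fell, at an adjusted p under 0.05 from limma. Of all 18132 genes, 15.2% passed this test, 6.97% higher and 8.22% lower. In IL-33-deficient kidneys the same 5 genes rose and none fell, where 21.8% of all genes passed, 10.6% higher and 11.2% lower. The median log2 fold change of the 9 genes was 1.06 in WT and 1.34 in IL-33-deficient kidneys, while that of all genes was 0.00 in both. Of the other 4 genes, Lifr, Osm and Socs1 lay in or just above the background range in every kidney, and Lif did so in the controls and in part of the obstructed kidneys. A fold change is compressed there. In whole kidney RNA, more cells of a kind that uses a gene cannot be told apart from more mRNA per cell.

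**Figure D1:**
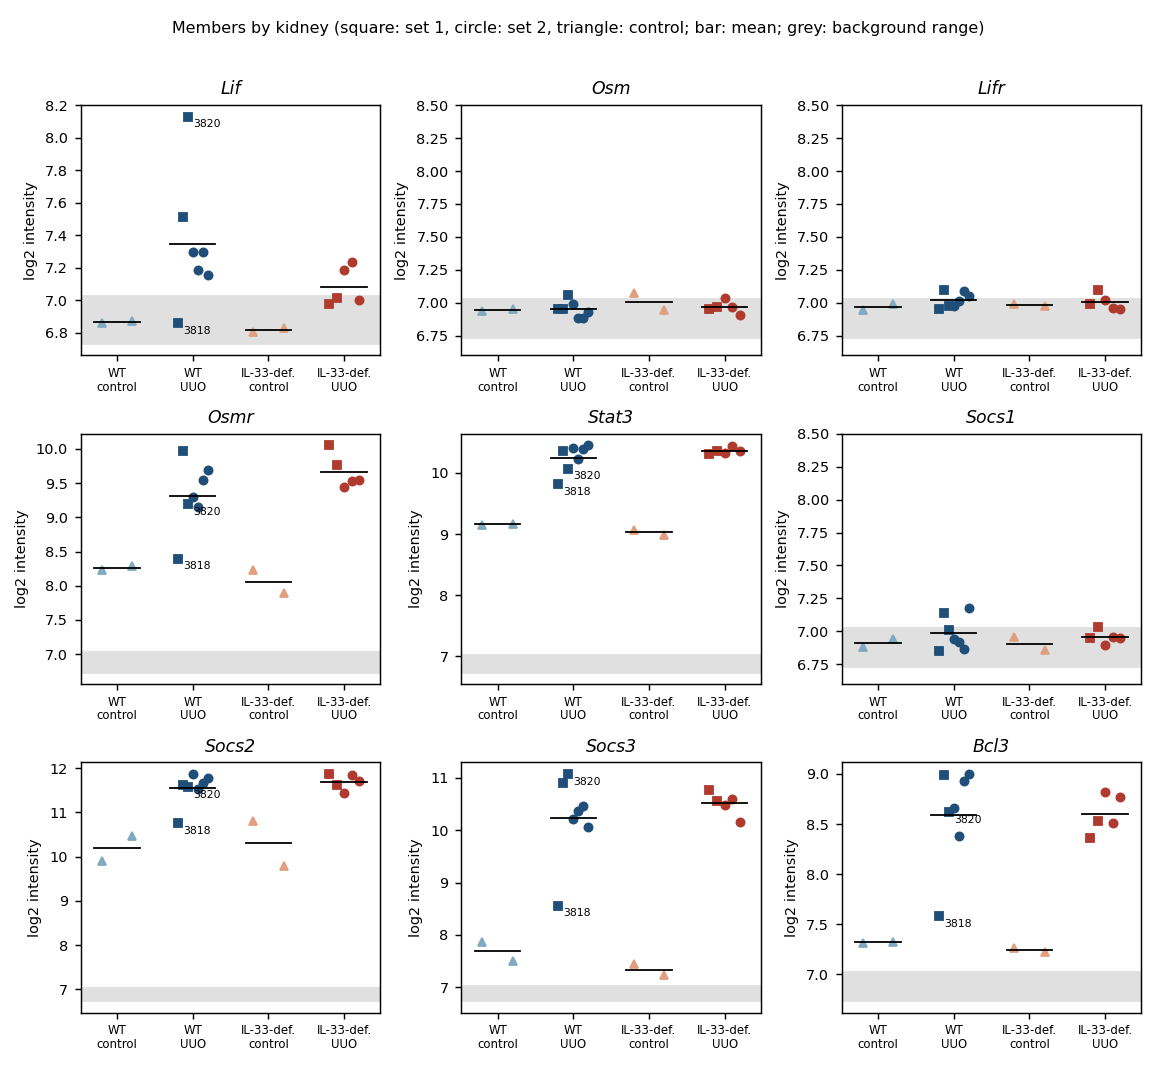
Log2 intensity of the 9 genes in each of the 16 kidneys, by group; squares are set 1, circles set 2 and triangles controls, bars are group means and the grey band is the 5th to 95th percentile of olfactory receptor genes. Osmr, Stat3, Socs2, Socs3 and Bcl3 lie above the band in all 16 kidneys, and kidney 3818 is the lowest WT kidney after UUO in these 5 genes.

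Of the cytokines, Lif, which signals through Lifr and gp130, was at 6.86 and 6.87 in the WT controls. After UUO the 7 WT kidneys ranged from 6.86 over a median of 7.30 to 8.13, the lowest in 3818 and the highest in 3820. It exceeded the 95th percentile of the background in 6 of these 7 kidneys, and 3818 stayed level with the controls. In IL-33-deficient kidneys Lif was at 6.80 and 6.83 in the controls and ran from 6.98 over a median of 7.02 to 7.24 after UUO, above the controls in every kidney but above the 95th percentile of the background in 2 of 5. On the log2 scale UUO kidneys differed from controls by 0.48 in WT (standard error 0.21, adjusted p = 0.158 from limma) and by 0.27 in the mutants (standard error 0.22, adjusted p = 0.488), and neither passed. Lif passed in 3 of the 27 other settings in each genotype. In both genotypes these included set 2 alone (0.37 in WT and 0.33 in IL-33-deficient kidneys) and the omission of both 3818 and 3820, which was chosen after seeing the data. That omission takes away the lowest and the highest WT value, so the standard error went from 0.21 to 0.09 while the WT value went down to 0.42 (adjusted p = 0.00258 from limma) and the IL-33-deficient value stayed at 0.27 (adjusted p = 0.0407). Lif did not pass without 3818 alone, without 3820 alone or in set 1 alone. Osm, a cytokine made mostly by leukocytes, ranged from 6.88 to 7.07 over all 16 kidneys, and its fold changes of 0.01 and -0.04 did not pass.

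Of the receptors, Osmr, the subunit that binds OSM together with gp130, was at 8.23 and 8.30 in the WT controls and at 8.23 and 7.89 in the IL-33-deficient controls. After UUO the WT kidneys ranged from 8.40 over a median of 9.29 to 9.97. The mutant values were 10.05, 9.77, 9.45, 9.53 and 9.54, so no obstructed kidney lay within its own controls. Kidney 3818 lay just above the higher WT control. Osmr rose by 1.06 on the log2 scale in WT (standard error 0.28, 95% confidence interval 0.45 to 1.66, adjusted p = 0.0200 from limma). In IL-33-deficient kidneys it rose by 1.61 (standard error 0.29, 0.98 to 2.24, adjusted p = 0.00108), a 3.05-fold increase. The WT call of Osmr was lost without either WT control (adjusted p = 0.152 without 3811 and 0.137 without 3812, from limma) and when the 2 WT groups were fitted alone (0.0727). Lifr, the receptor of LIF, lay between 6.94 and 7.10 in all kidneys, and its fold changes of 0.06 and 0.02 did not pass.

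Stat3, the transcription factor on which the family converges, was at 9.14 and 9.17 in the WT controls and at 9.07 and 8.99 in the IL-33-deficient controls. After UUO the WT kidneys ranged from 9.82 over a median of 10.37 to 10.45, and the mutant kidneys lay at 10.32, 10.36, 10.33, 10.44 and 10.36. Every obstructed kidney lay above every control, and the SD of the 5 IL-33-deficient kidneys was 0.05. Stat3 rose by 1.09 in WT (standard error 0.12, adjusted p = 9.2e-05 from limma) and by 1.34 in IL-33-deficient kidneys (standard error 0.13, adjusted p = 1.2e-05), 2.13-fold and 2.52-fold. Its call held in both genotypes without any single kidney, and in set 1 alone (adjusted p = 0.0355 in WT and 0.00758 in IL-33-deficient kidneys, from limma).

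Of the feedback inhibitors, Socs3 was at 7.87 and 7.51 in the WT controls and at 7.43 and 7.24 in the IL-33-deficient controls. After UUO the WT kidneys ranged from 8.56 over a median of 10.36 to 11.08, and the mutant kidneys lay at 10.77, 10.57, 10.49, 10.60 and 10.15. Every obstructed kidney lay above every control, and of the WT kidneys 3818 was the lowest and 3820 the highest. Socs3 rose by 2.54 in WT (standard error 0.44, adjusted p = 0.00152 from limma), a 5.83-fold increase. It rose by 3.18 in IL-33-deficient kidneys (standard error 0.46, adjusted p = 0.000177), a 9.05-fold increase, the largest among the 9 genes in both genotypes.

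Socs2, which restrains growth hormone signalling through STAT5, was at 9.90 and 10.47 in the WT controls and at 10.80 and 9.80 in the IL-33-deficient controls. After UUO the WT kidneys ranged from 10.75 over a median of 11.62 to 11.87, and the mutant kidneys lay at 11.86, 11.61, 11.43, 11.83 and 11.71. Controls of this gene were the least alike of the 9, with an SD of 0.40 in WT and 0.71 in IL-33-deficient kidneys, and the IL-33-deficient control 3813 lay above the WT kidney 3818 after UUO. Socs2 rose by 1.35 in WT (standard error 0.27, adjusted p = 0.00336 from limma) and by 1.39 in IL-33-deficient kidneys (standard error 0.28, adjusted p = 0.00194). It lost the call without control 3811 in WT (1.07, adjusted p = 0.0933 from limma) and without control 3814 in IL-33-deficient kidneys (0.89, adjusted p = 0.0781). Socs1, which inhibits JAK kinases and answers chiefly to interferon, lay between 6.85 and 7.18 in all kidneys, and its fold changes of 0.07 and 0.05 did not pass.

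Bcl3, an IκB-like partner of NF-κB p50 and p52 and a STAT3 target, was at 7.31 and 7.32 in the WT controls and at 7.26 and 7.22 in the IL-33-deficient controls. After UUO the WT kidneys ranged from 7.58 over a median of 8.66 to 9.001, and the mutant kidneys lay at 8.36, 8.53, 8.82, 8.51 and 8.77. The 4 controls were nearly level and every obstructed kidney lay above them, 3818 least. Bcl3 rose by 1.28 in WT (standard error 0.27, adjusted p = 0.00536 from limma) and by 1.36 in IL-33-deficient kidneys (standard error 0.28, adjusted p = 0.00261). The WT call was lost without control 3811 (adjusted p = 0.0648 from limma) or 3812 (0.0697).

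**Figure D2:**
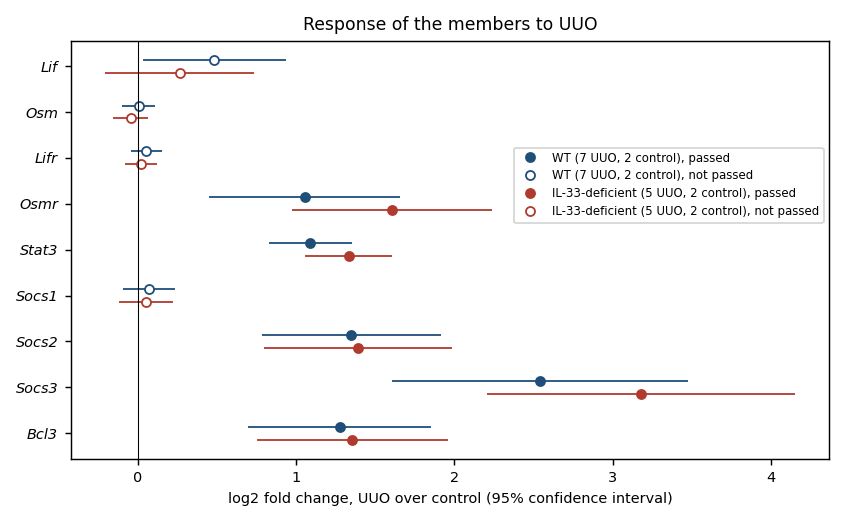
Log2 fold change of each gene, UUO over control, with 95% confidence intervals from limma, in WT (blue, 7 against 2) and IL-33-deficient kidneys (red, 5 against 2); filled points passed an adjusted p of 0.05. Socs3 has the largest value in both genotypes, 2.54 and 3.18, and the intervals of the genotypes overlap for all 9 genes.

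For the 5 genes that rose, the exact two-sided permutation p was 0.0278 in WT and 0.0476 in IL-33-deficient kidneys, the smallest that 7 against 2 and 5 against 2 arrays allow. With 2 controls per genotype the WT count was the least firm. It was 2 genes without control 3811 and 3 without control 3812, where the lone control is assumed to vary like the other groups, and 1 (Stat3) in set 1 alone. Calls over all genes fell as well, from 2754 to 1051, 809 and 188. In IL-33-deficient kidneys 3 genes (Osmr, Stat3 and Socs3) passed in set 1 alone, 5 without control 3813 and 4 without control 3814. Calls over all genes fell there from 3955 to 2258, 2276 and 2575, so the background share of both genotypes rested on single controls. In set 2 alone the 5 genes and Lif passed in both genotypes. Calls over all genes were then 4241 in WT and 4453 in IL-33-deficient kidneys. Without both 3818 and 3820 the count was 6 in each genotype, Lif being the sixth. This omission took the calls over all genes from 2754 to 4116 in WT and from 3955 to 4565 in IL-33-deficient kidneys. Without these 2 kidneys the WT fold changes were 2.71 for Socs3, 1.502 for Socs2, 1.47 for Bcl3, 1.27 for Osmr and 1.21 for Stat3 on the log2 scale, each above its value in all 7 kidneys.

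The obstructed kidneys differed in how far the 5 genes moved together. Kidney 3818 ranked last among the 7 WT kidneys in 5 of 5 genes, with a median response of 0.56 above the WT control mean and a range from 0.13 for Osmr to 0.87 for Socs3. The other 6 WT kidneys had median responses of 1.07 to 1.67, and the 5 IL-33-deficient kidneys of 1.33 to 1.56. Kidney 3820 was inside this range, with the highest Socs3 of all 16 kidneys.

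**Figure D3:**
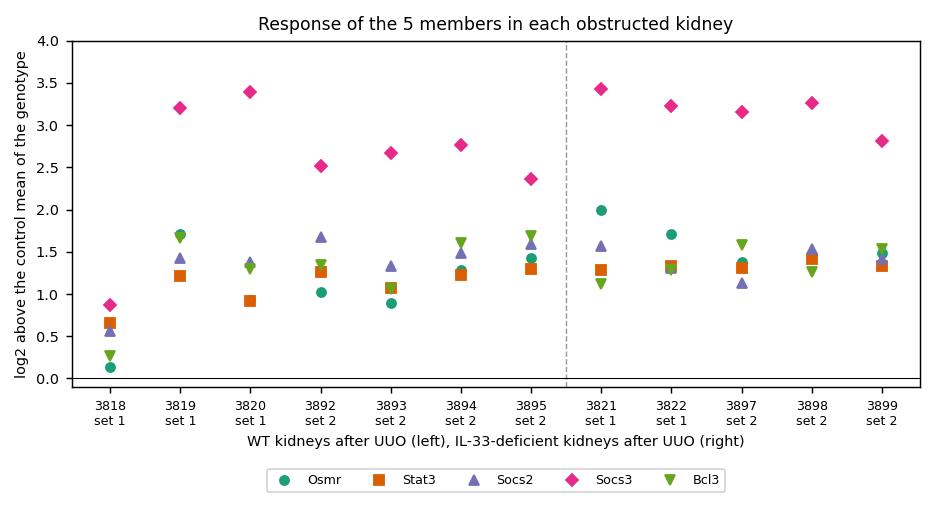
Log2 level of the 5 genes above the control mean of their genotype in each obstructed kidney, WT on the left and IL-33-deficient on the right of the dashed line. Kidney 3818 lies below 1 for all 5 genes, and Socs3 lies at 2.37 or above in every other kidney.

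Markers of other cells moved with this order in part. The 6 neutrophil markers summed to 1044 in 3818, inside the 963.5 to 1116 of the WT controls, and to 2047 to 2577 in the other 6 WT kidneys. In IL-33-deficient kidneys the sum was 718.4 to 905.8 in controls and 1577 to 3039 after UUO. S100a8 and Retnlg rose in WT, and S100a8 and S100a9 in IL-33-deficient kidneys, while the receptor markers Csf3r and Cxcr2 (listed as Il8rb) stayed within the background range in every kidney. Ngp, the remaining marker, had a lower mean after UUO, 6.86 against 6.99 in WT and 6.87 against 6.92 in IL-33-deficient kidneys, and did not pass. Of the 9 macrophage markers, 2 rose and 1 fell in WT and 6 rose and 1 fell in IL-33-deficient kidneys. Of all genes, 6.97% rose and 8.22% fell in WT, and 10.6% rose and 11.2% fell in IL-33-deficient kidneys. The macrophage sums were 2331 to 2352 in WT controls and 2086 to 2178 in IL-33-deficient controls. After UUO they were 2989 to 4577 in IL-33-deficient kidneys and 4465 in the WT kidney 3819. The other 6 WT kidneys ran from 2519 to 2938, all below the lowest obstructed IL-33-deficient kidney. None of the 9 markers was called between genotypes after UUO. Of 5 fibroblast markers 2 rose in each genotype, and none of the 8 lymphocyte markers passed. In kidney 3818 the macrophage sum was 2870 and the fibroblast sum 2552, neither the lowest of the WT kidneys after UUO. Of 7 tubule markers, 3 fell in WT and 4 in IL-33-deficient kidneys, and all 3 injury markers rose in both. After UUO the tubule sum was 40830 in 3820, inside the 39660 to 43750 of the WT controls, and 33570 in 3818. It ran from 19560 to 29560 in the other 5 WT kidneys and from 18890 to 21660 in the IL-33-deficient kidneys. The part of these cells in the changes above was not tested.

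The level after UUO was then compared between genotypes over the 12 obstructed kidneys, at the threshold of the study (an unadjusted p under 0.05, with 0.25 for the adjusted p and 1.3 for the fold change). None of the 9 genes passed, where 0.0110% of all genes did (2 genes, 0.00552% in each direction, 1 of them also at an adjusted p of 0.05). The lower of these is Il33, the deleted gene itself (-2.36, adjusted p = 9.6e-05 from limma). The count over all genes was unstable: it was 309 without the WT kidney 3819, 94 without the IL-33-deficient kidney 3899, 31 without 3820, 6 without 3818 and 1 on leaving out each of the other 8 kidneys in turn. It was 127 in the model of 4 groups and 226 (63 higher and 163 lower) against the 4 WT kidneys of set 2, and none of the 9 genes was among the calls in these settings. In all 12 kidneys limma gave 1874 genes an unadjusted p under 0.05 but none of the 9. The difference, IL-33-deficient minus WT, was 0.35 for Osmr (95% confidence interval -0.13 to 0.83, adjusted p = 0.630 from limma) and -0.27 for Lif (-0.63 to 0.10, adjusted p = 0.630). Socs3 differed by 0.28 (-0.46 to 1.02), Socs2 by 0.15 (-0.20 to 0.50), Stat3 by 0.12 (-0.09 to 0.33) and Bcl3 by 0.00 (-0.46 to 0.47). The interval of Socs3 reaches 1.02 on the log2 scale, so equal levels were not shown. The groups overlapped for all 9 genes.

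Within set 1 the difference in Osmr was 0.73, and within set 2 it was 0.09 (exact two-sided permutation p = 0.3 and 0.571, where 2 against 3 and 3 against 4 kidneys allow no less than 0.1 and 0.0286). For Stat3 the values were 0.25 and 0.01, for Socs3 0.49 and 0.14 and for Lif -0.51 and -0.09. The differences of these 4 genes were thus larger in set 1, which holds 3818 and 3820. Without these 2 kidneys the differences were 0.14 for Osmr, -0.01 for Stat3, 0.12 for Socs3, -0.21 for Lif and -0.19 for Bcl3, and none passed.

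**Figure D4:**
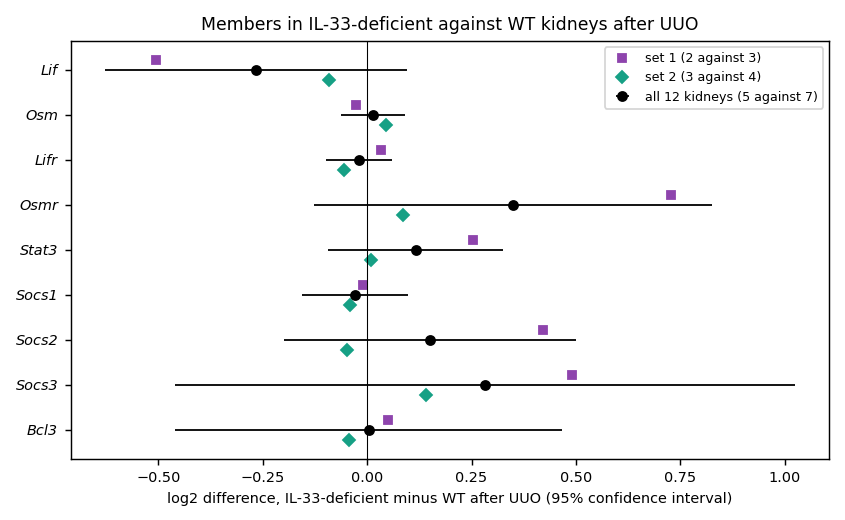
Difference in log2 level, IL-33-deficient minus WT kidneys after UUO; black points and 95% confidence intervals are from limma over 12 kidneys, squares are differences of means within set 1 and diamonds within set 2. All 9 intervals include 0, and the set 1 values of Osmr (0.73), Socs3 (0.49), Socs2 (0.42) and Lif (-0.51) lie farther from 0 than those of set 2.

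The response to UUO itself, as an interaction of genotype and treatment, differed for none of the 9 genes at an adjusted p of 0.05, and for none of all 18132 genes (0.00%), 860 having an unadjusted p under 0.05 from limma. The interaction was 0.64 for Socs3 (95% confidence interval -0.71 to 1.98), 0.55 for Osmr (-0.32 to 1.42) and 0.24 for Stat3 (-0.14 to 0.62). In the controls, IL-33-deficient against WT, again no gene of the 9 and none of all genes passed (0.00%), with 664 at an unadjusted p under 0.05 from limma. The differences of the 9 genes between controls ran from -0.35 for Socs3 to 0.11 for Socs2, and 2 arrays against 2 cannot reach an exact permutation p below 0.333.

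Other genes of the pathway were read from 6 lists of 72 genes, 70 of them measured. In WT kidneys 20 rose and 4 fell after UUO, and in IL-33-deficient kidneys 23 rose and 4 fell, where 15.2% and 21.8% of all genes passed in either direction. Their median log2 fold change was 0.08 and 0.13, against 0.00 over all genes. The counts moved with the arrays: in WT 24 genes passed in all, 13 without control 3811, 11 without control 3812 and 6 in set 1 alone, and in IL-33-deficient kidneys 27 passed in all and 16 in set 1 alone. Over all genes the same settings gave 2754, 1051, 809 and 188 calls for WT, against 3955 and 2258 for the mutants. Without both 3818 and 3820, 31 passed in WT and 33 in IL-33-deficient kidneys, among them every gene called with all kidneys. The WT values were then 2.32 for Il11, 0.70 for Il6st, 1.91 for Cebpb, 0.96 for Nfkb1, 5.94 for Lcn2 and -0.59 for Vegfa on the log2 scale, each farther from 0 than with all 7 kidneys. Lcn2 was among the injury markers by which 3818 and 3820 were set apart, so its larger value follows from that choice. Other called genes, such as Serpina3n, Hif1a and Saa3, then lay nearer to 0 in WT, at 2.06, 0.25 and 0.36. None of the 70 passed the threshold of the study between genotypes after UUO.

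Of the 8 further cytokines, Il11 alone rose with all kidneys in the fit. Its rise was 1.97 in WT (standard error 0.43, adjusted p = 0.00681 from limma) and 1.92 in IL-33-deficient kidneys (standard error 0.45, adjusted p = 0.00621). Il11 encodes an IL-6 relative that signals through gp130 and its own receptor. All 4 controls of Il11 lay within the background range, so its fold changes are compressed. In WT it ranged from 7.41 in kidney 3818 over a median of 9.03 to 9.76 after UUO. Il6 had fold changes of 0.23 and 0.20 that did not pass (adjusted p = 0.269 and 0.361 from limma), with WT kidneys between 6.88 and 7.60 after UUO. Without both 3818 and 3820 Il6 passed (0.19 and 0.20, adjusted p = 0.0329 and 0.0239 from limma). Clcf1 also passed in that setting, at 0.58 in WT and 0.46 in IL-33-deficient kidneys (adjusted p = 0.00104 and 0.00512 from limma). Ctf1 passed there at -0.22 in WT (adjusted p = 0.0243 from limma). All 4 controls of Il6 and all 4 of Clcf1 lay within the background range as well, so their fold changes are compressed too. The obstructed IL-33-deficient kidneys had Il6 at 6.89 to 7.15, in or just above that range. Of the 6 receptor genes, Il6st, which encodes gp130, rose by 0.65 in WT and by 0.60 in IL-33-deficient kidneys (adjusted p = 0.000791 and 0.000735 from limma). Il11ra1, the receptor of IL-11, fell by 0.58 and by 0.61 (adjusted p = 0.000508 and 0.000173). Il27ra rose by 0.24 in IL-33-deficient kidneys, close to the background. Its controls there were at 6.90 and 7.03, in or at the upper edge of the background range, and the obstructed kidneys ran from 7.06 to 7.29.

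Of the 10 JAK kinases and other STATs, Jak3, a kinase of leukocyte cytokine receptors, rose by 0.25 in WT and by 0.33 in IL-33-deficient kidneys. Jak1, a kinase that gp130 receptors use, rose by 0.78 in IL-33-deficient kidneys (adjusted p = 0.00581 from limma) and had a value of 0.33 in WT that did not pass (adjusted p = 0.255), or passed at 0.49 without both 3818 and 3820 (adjusted p = 0.0102). Stat5a fell by 0.22 and by 0.15. Jak2 had values of 0.05 and 0.11 that did not pass. Of the 13 further inhibitors, the phosphatase gene Ptpn11 rose by 0.29 and by 0.42, and Socs5 fell by 0.29 and by 0.36. Cish, a STAT5 target, rose by 1.35 in IL-33-deficient kidneys (standard error 0.38, adjusted p = 0.0185 from limma). In WT its mean log2 level was lower after UUO, at 10.25 against 10.91 in controls, and this did not pass. The IL-33-deficient controls had a mean of 9.23.

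Over all genes, 6.97% passed higher and 8.22% lower in WT, and 10.6% higher and 11.2% lower in IL-33-deficient kidneys. Of the 27 STAT3 target and acute phase genes, 12 rose and 1 fell in WT, and 13 rose and 1 fell in IL-33-deficient kidneys. Their median log2 fold changes were 0.45 and 0.48. Lcn2, which encodes the iron carrier NGAL and is itself a marker of tubular injury, rose most, by 5.61 and by 5.91 (adjusted p = 6.7e-07 and 4.2e-07 from limma). Vegfa, the endothelial growth factor, fell by 0.49 and by 0.63 (adjusted p = 0.00989 and 0.00143). Of the 6 partners of Bcl3 and Cebpd, 3 rose in both genotypes. Cebpb, a leucine zipper factor of the acute phase response, rose by 1.65 and by 2.12 (adjusted p = 0.00178 and 0.000196 from limma), and Nfkb1 and Nfkb2, which encode the p50 and p52 partners of BCL3, rose by 0.76 and 0.45 in WT and by 1.17 and 0.70 in IL-33-deficient kidneys.

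**Figure D5:**
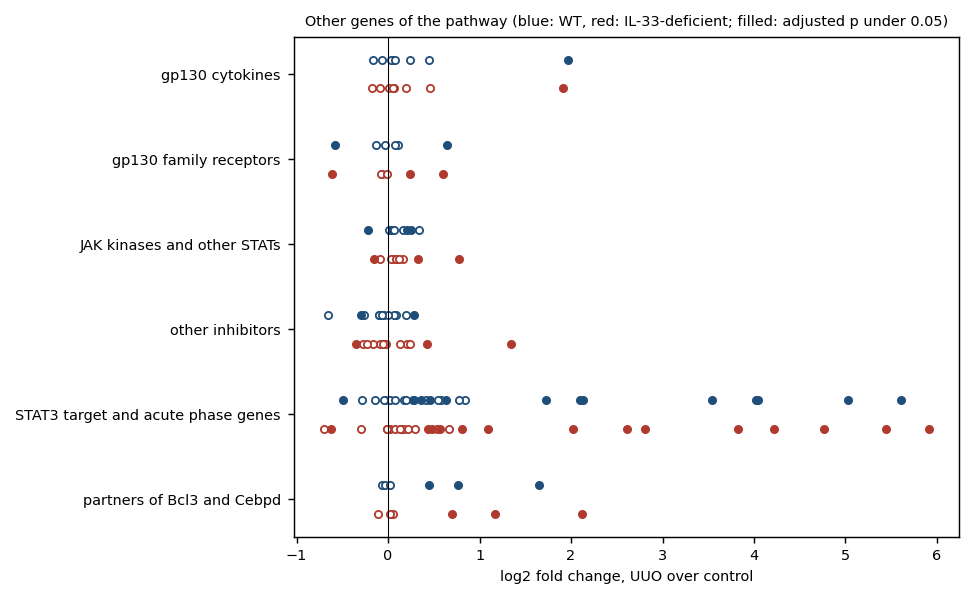
Log2 fold change, UUO over control, of the 70 further pathway genes in 6 lists, WT in blue and IL-33-deficient in red; filled points passed an adjusted p of 0.05. Most cytokine, receptor, kinase and inhibitor genes lie within 1 of 0, and the target and acute phase list reaches 5.61 in WT and 5.91 in IL-33-deficient kidneys, both for Lcn2.

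Kidneys 3818 and 3820 fell on different genes of this list. Of the 12 target genes that rose in WT, 8 were lowest in 3820 among the 7 WT kidneys (Timp1, Lcn2, Saa3, Fga, Fgg, Lrg1, Cp and Serpina3n) and 3 in 3818 (Junb, Bcl2l1 and Mcl1), while Hif1a was lowest in 3892. Among the same 12 genes, 3818 was the highest WT kidney in 2 and 3820 in 1. Lcn2 was among the injury markers by which both kidneys had been set apart, so its low rank restates that choice. Lcn2 was at 11.81 in 3820 and 12.79 in 3818, and at 13.37 to 13.62 in the other 5 WT kidneys. Socs3 in the same 3820 was the highest of all, as given above. This order was seen after the values were known and was given no test. Some acute phase genes of the list that did not pass in WT had a far higher top value among the WT kidneys after UUO. Hpx reached 10.43 over a median of 7.11, Orm1 9.76 over 6.98 and Hp 10.16 over 7.33. Without both 3818 and 3820 the WT fold changes of Hpx and Orm1 were 0.09 and -0.0011 on the log2 scale. The source of these high values was not tested.

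The genes nearest in profile were found by the root mean square difference over 16 arrays, each profile centred on its own mean. For Stat3 these were Zyx (0.11), Plscr1 (0.13) and Sphk1 (0.13), and for Osmr Gvin1 (0.21), Plscr1 (0.21) and Edn1 (0.22). For Bcl3 they were Adora2b (0.20), Cdkn1a (0.21) and Zfp36l1 (0.21), and for Socs2 Stat3 (0.25), Adora2b (0.27) and Igf2bp2 (0.27). Socs3, whose level varied most, had its nearest profiles at 0.35 (Cldn4), 0.40 (Tsc22d1) and 0.45 (Junb), against an SD of 1.39 of its own.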

How the data were processed

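Total RNA of whole kidneys was labelled with biotin and hybridised to Illumina MouseRef-8 v2 arrays. The deposited intensities, on a linear scale and 1 per gene symbol, came from the authors, whose processing notes name BeadStudio 2; background correction, normalization and joining of probes are not given in the sources used here. Array medians of 132.3 to 133.4 show that the arrays had been made alike. The number of arrays, not a read depth, limits the precision. Intensities were quantile normalized over 16 arrays, taken to log2 and fitted with limma 3.58.1 in R 4.3.3 (lmFit, eBayes), with Benjamini-Hochberg adjustment over all 18132 genes and no filter. One model of 4 groups gave the UUO, control and interaction contrasts, and the 12 UUO arrays alone gave the genotype contrast. The study also used limma, with 4 WT arrays it does not name, while all 7 entered here. Single values had exact two-sided permutation tests. The fit was tested on simulated data. Named were all members, Il33, Il6, Il6st and Jak2, the called gene with the largest rise and fall per pathway list, and the 3 nearest profiles of members with a log2 fold change of at least 1. The members of small counts and the cytokines Clcf1 and Ctf1 were named after their values were seen. Not every called gene of the pathway lists is reported here by name. The genes and lists were chosen with earlier results of these data known.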

Additional observations from a re-analysis of the deposited data

Results flagged for a closer look

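In the 7 WT kidneys after UUO, kidney 3818 was separated from the rest in 3 of the 20 groups of 5 or 7 kidneys examined (10 genes in 2 groups), by the gap to the nearest kidney over the whole range. Its log2 level was 8.56 for Socs3, with the next kidney at 10.06 and the highest at 11.08. It was 10.75 for Socs2, with the next at 11.52 and the highest at 11.87. It was 8.39 for Il33, with the next at 9.10 and the highest at 9.57. Chance flags about 1 in 20 groups, and the 3 values come from the same kidney.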

How the results depend on the processing

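Another scaling (the deposited values, median centring, subtraction of the lowest intensity), only the brighter genes, a trended prior variance and a fold change above 1.3 left 5 members called in each genotype. Counts moved over 1.5 times in set 1 alone, to 1 member and 6 pathway genes in WT and to 3 and 16 in IL-33-deficient kidneys. Leaving out 1 array gave 2 to 5 members in WT, with 2 members and 13 pathway genes without control 3811 and 3 and 11 without control 3812; pathway genes ran from 11 to 27. Between genotypes, in controls and for the interaction, 0 members were called in every setting run. Lif gained the WT call with array weights (0.42, adjusted p = 0.0447 from limma) and the IL-33-deficient call in the fit of 2 groups (adjusted p = 0.0387). The calls of Socs3 (adjusted p = 0.131 from limma), Socs2 (0.182), Bcl3 (0.183) and Osmr (0.301) were lost in WT and of Socs2 (0.0593) and Bcl3 (0.0901) in IL-33-deficient kidneys in set 1 alone.

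Signs turned in the following values, none of them called. For UUO in WT, Osm was -0.0011 with array weights, -0.020 in set 2, -0.015 without 3818 and 3820 (chosen after seeing the data) and between -0.011 and 0.019 with 1 array left out. For UUO in IL-33-deficient kidneys, Lifr was -0.0056 in set 2 and between -0.0024 and 0.034, and Osm up to 0.024, with 1 array left out. Between genotypes after UUO, in set 1 Lifr was 0.033 and Osm -0.027; in set 2 Socs2 was -0.049 and Bcl3 -0.043; against the WT arrays of set 2 Stat3 was -0.0065, Socs2 -0.019 and Bcl3 -0.14; without 3818 and 3820 Stat3 was -0.0056, Socs2 -0.0011 and Bcl3 -0.19. Bcl3 was -0.040 with array weights and -0.0049 with the set as a block. With 1 array left out Osm fell to -0.0030, Bcl3 ran from -0.16 to 0.072 and Socs1 from -0.052 to 0.0026. Between controls, with 1 array left out, Lifr ran from -0.0055 to 0.037, Osm from -0.0019 to 0.13, Socs2 from -0.39 to 0.61 and Socs1 from -0.057 to 0.041. For the interaction, Lifr was 0.017 in set 1, and Socs2 -0.041 with array weights, -0.16 in set 2 and -0.11 without 3818 and 3820, where Bcl3 was -0.12. With 1 array left out Osm reached 0.016, Socs1 ran from -0.070 to 0.028, Socs2 from -0.46 to 0.54 and Bcl3 from -0.089 to 0.15. The causes were not tested. No paired analysis was possible because no replicate number is shared between groups.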

Other observations

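Cish, an inhibitor induced by STAT5, was at 10.49 and 11.33 in the WT controls and at 9.81 and 8.64 in the IL-33-deficient controls. After UUO it ranged from 9.57 over a median of 10.40 to 10.77 in WT kidneys, none above the higher control, and UUO minus control was -0.65 on the log2 scale (standard error 0.37), with an adjusted p of 0.296 from limma. In IL-33-deficient kidneys it was at 10.93, 9.83, 10.43, 10.94 and 10.74, all above their controls. The genotype difference in this response was 2.00 (standard error 0.53), with an adjusted p of 0.973 from limma.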
